A study of Mus musculus with 3 samples.

Results

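The genes described here are 3 ligands of the vascular endothelial growth factor family (Vegfa, Vegfb and Vegfc), the receptor gene Flt4 and 3 further genes of lymphatic vessels (Prox1, Lyve1 and Pdpn). They were taken by exact symbol from the gene column of the deposited tables, and all 7 were found among 21881 gene rows. The tables describe wild-type whole skin (WT in the file headers) of FVB mice, an inbred albino laboratory strain, at 3 ages: the embryo at day 18.5 of gestation (E18.5), the pup 3 days after birth (P3) and the adult of 10 weeks. Per the series design each age had 2 biological replicates, whereas the tables hold 1 averaged value per gene and age. For this reason no difference below could be held against a spread between animals, and no test was run.

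Vegfa drives the growth and permeability of blood vessels, chiefly through the receptor Kdr, and in skin it is made largely by epidermal cells. Vegfb binds Flt1 and is known from muscle, heart and brown fat, whereas Vegfc is the main growth factor of lymphatic vessels and acts through Flt4, also called VEGFR-3. Prox1 is the transcription factor that sets lymphatic identity, Lyve1 a hyaluronan receptor of lymphatic capillaries that some tissue macrophages also carry, and Pdpn (podoplanin) a surface glycoprotein of lymphatic endothelium that keratinocytes and fibroblasts can express as well. All 4 of these receptor and lymphatic genes were detected at each age, as given below. In bulk samples of a whole tissue fewer cells of a type and less RNA per cell cannot be told apart.

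Values are FPKM, fragments scaled by transcript length and by the number of mapped fragments, so that levels can be compared between genes. None of the 7 genes bore a mark of failed or low-data estimation at any age, and none of their spans overlapped another gene row. The 7 values of an age are given below as the authors averaged them. Genes that skin is not known to use give an idea of the lowest readable level. Of 1096 olfactory receptor rows, 1008, 1023 and 1055 were listed at 0 in order of age. Their 95th percentile was 0.0101 FPKM in the embryo, 0.00529 FPKM in the pup and 0 in the adult, below the lowest value of any of the 7 genes, although single rows reached 5.24, 6.31 and 6.41 FPKM. Sex-linked genes differed between the tables. Xist had levels of 0.0433, 64.6 and 73.0 FPKM in order of age, and the Y-linked Ddx3y had 24.1 and 0.0218 FPKM at E18.5 and P3 and was listed at 0 at 10 weeks. Age and sex pattern therefore cannot be told apart in comparisons with E18.5. None of the 7 genes lies on X or Y.

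All 7 genes had their lowest level at P3. Among the 14653 genes that reached 1 FPKM at any age and had a value at each, 39.2% were lowest at P3. Under 3 other scalings of the ages all 7 were again lowest at P3, while the share among all genes lay between 38.1% and 43.6%. For 3 of the 7, Vegfa, Vegfb and Lyve1, the P3 level was below both other ages by the 2-fold rule given below, against 5.54% of all genes. The highest level was at 10 weeks for 6 of the 7, against 47.7% of all genes, and at E18.5 for Prox1. Under the 3 other scalings the adult level was the highest for 5 (median of ratios), 4 (upper quartile) and 5 (summed FPKM) of the 7, against 39.1%, 36.6% and 40.9% of all genes. Vegfa lost its adult maximum under all 3 and Flt4 under the upper quartile.

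**Figure D1:**
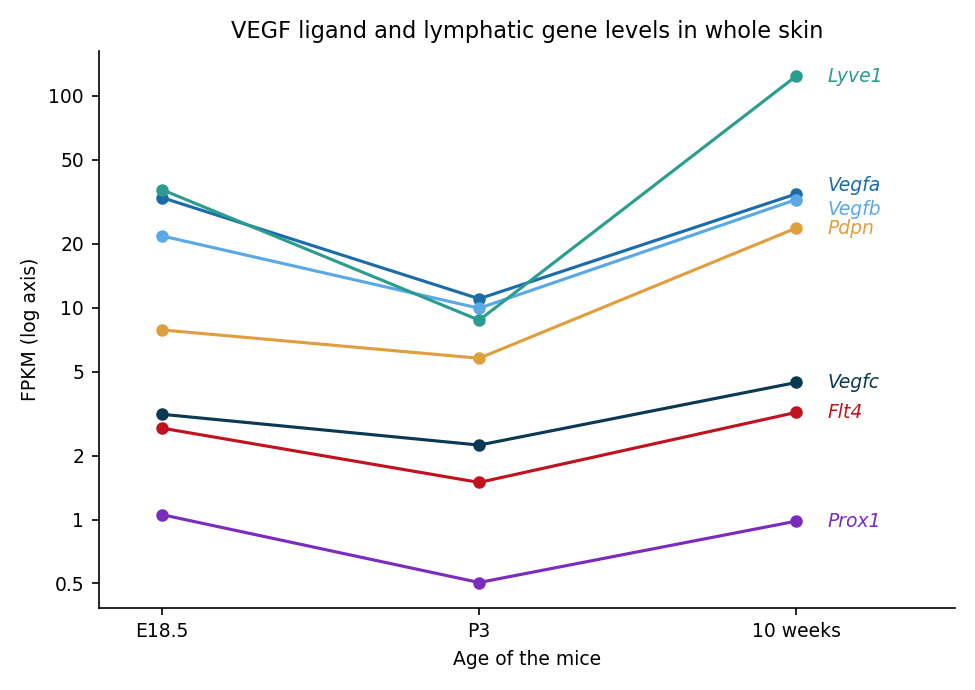
FPKM of the 7 genes (log axis) in whole skin at E18.5, P3 and 10 weeks, evenly spaced, 1 averaged value per gene and age and no error bars because no replicate values were used. Every line has its low point at P3, and Lyve1 spans the widest range, with 8.74 FPKM at P3 and 124 FPKM at 10 weeks.

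The ligands Vegfa and Vegfb were the more abundant ones. Vegfa (mm9 chromosome 17, 46153943 to 46169326) had 33.1 FPKM at E18.5, 11.0 FPKM at P3 and 34.5 FPKM at 10 weeks. Its level before birth and in the adult was thus nearly the same, with the newborn value far below either. Vegfb (chromosome 19, 7056962 to 7062141) had 21.8 FPKM at E18.5, 9.95 FPKM at P3 and 32.4 FPKM at 10 weeks, so that its low point was at the same age. The Vegfa over Vegfb ratio was 1.52, 1.11 and 1.06 at E18.5, P3 and 10 weeks, so the margin of Vegfa was widest in the embryo. Vegfc (chromosome 8, 55162886 to 55271808) was the least abundant ligand, with 3.14 FPKM at E18.5, 2.25 FPKM at P3 and 4.44 FPKM at 10 weeks. It varied less than the other ligands, with a highest over lowest ratio of 1.97, against 3.13 for Vegfa and 3.26 for Vegfb. The tables hold 1 row per gene, so that the splice forms of Vegfa, which differ in how tightly they bind matrix, were not separated.

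The receptor and the lymphatic transcription factor were low at all ages. Flt4 (chromosome 11, 49423181 to 49466241) had 2.70 FPKM at E18.5, 1.497 FPKM at P3 and 3.21 FPKM at 10 weeks. Prox1 (chromosome 1, 191945658 to 191994559) had 1.05 FPKM at E18.5, 0.504 FPKM at P3 and 0.983 FPKM at 10 weeks. In order of age Prox1 stood at or above 9.19%, 7.17% and 5.96% of expressed genes, the lowest position of the 7 each time. The Flt4 over Prox1 ratio moved little, being 2.56, 2.97 and 3.26 at E18.5, P3 and 10 weeks. The Vegfc over Flt4 ratio was 1.16, 1.501 and 1.38 at the same ages, so that the ligand exceeded its receptor in FPKM at each.

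Lyve1 and Pdpn had the largest adult levels relative to the other ages. Lyve1 (chromosome 7, 117994121 to 118006467) had 36.1 FPKM at E18.5, 8.74 FPKM at P3 and 124 FPKM at 10 weeks. It was the most abundant of the 7 at E18.5 and 10 weeks and came after Vegfa and Vegfb at P3. Pdpn (chromosome 4, 142857325 to 142889410) had 7.86 FPKM at E18.5, 5.77 FPKM at P3 and 23.8 FPKM at 10 weeks. Its E18.5 and P3 levels lay close together, with a P3 over E18.5 ratio of 0.735, and the adult level stood apart. The order of the other 6 was the same at all 3 ages, namely Vegfa, Vegfb, Pdpn, Vegfc, Flt4 and Prox1. Whether neighbours in this order, such as Vegfc and Flt4, differ beyond the spread between animals could not be tested.

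The promoters of 4 of these genes are shown because 3 of them, Vegfa, Vegfb and Pdpn, differed most between ages among the genes with a sequence, and Flt4 is the receptor whose level moved less. RefSeq windows (build GRCm38.p6) of 250 bases before to 50 after the gene start were matched for 6 of the 7 genes, taking the window furthest upstream. Each is written in the direction of transcription, and capitals mark GGGCGG, the GC box to which Sp1 binds, or CCGCCC on the other strand.
Vegfa (GRCm38.p6, chr17:46032328-46032627, strand -): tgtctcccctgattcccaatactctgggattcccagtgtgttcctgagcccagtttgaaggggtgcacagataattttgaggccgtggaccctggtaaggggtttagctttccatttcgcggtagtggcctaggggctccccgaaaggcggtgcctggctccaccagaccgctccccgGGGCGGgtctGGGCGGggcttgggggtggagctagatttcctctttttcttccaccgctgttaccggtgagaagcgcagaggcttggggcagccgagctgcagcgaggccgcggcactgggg
Vegfb (GRCm38.p6, chr19:6987602-6987901, strand -): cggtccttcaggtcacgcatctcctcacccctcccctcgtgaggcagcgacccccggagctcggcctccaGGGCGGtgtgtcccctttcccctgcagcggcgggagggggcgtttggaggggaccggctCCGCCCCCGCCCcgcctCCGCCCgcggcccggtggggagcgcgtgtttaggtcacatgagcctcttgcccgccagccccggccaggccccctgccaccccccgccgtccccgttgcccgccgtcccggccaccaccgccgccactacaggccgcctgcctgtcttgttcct
Flt4 (GRCm38.p6, chr11:49609429-49609728, strand +): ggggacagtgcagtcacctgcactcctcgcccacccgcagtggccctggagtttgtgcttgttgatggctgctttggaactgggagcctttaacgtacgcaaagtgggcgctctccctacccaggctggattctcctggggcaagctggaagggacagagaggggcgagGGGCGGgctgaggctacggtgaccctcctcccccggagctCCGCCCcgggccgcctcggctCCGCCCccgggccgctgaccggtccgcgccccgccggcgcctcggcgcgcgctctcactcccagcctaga
Pdpn (GRCm38.p6, chr4:143299515-143299814, strand -): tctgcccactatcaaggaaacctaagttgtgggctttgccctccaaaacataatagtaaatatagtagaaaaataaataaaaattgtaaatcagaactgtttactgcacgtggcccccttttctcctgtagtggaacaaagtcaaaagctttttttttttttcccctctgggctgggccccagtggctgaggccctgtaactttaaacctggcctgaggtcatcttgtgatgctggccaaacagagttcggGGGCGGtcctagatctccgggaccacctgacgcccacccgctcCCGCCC

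GGGCGG occurred on either strand in 6 of 6 of these windows and in 35.9% of 27025 windows of the same length over all genes. The windows were also rich in G and C, with 62.0% for Vegfa, 75.3% for Vegfb, 70.3% for both Vegfc and Flt4 and 64.3% for Prox1, against a median of 52.7% over all windows. Pdpn was below that median, with 48.7%. ACGTG, a core of the hypoxia response element, was found in the window of Pdpn only, where it lies within the E box CACGTG, and in 19.6% of all windows. The other core, GCGTG, was found in that of Vegfb and in 32.5% of all windows. The letters TATAAA were found for Prox1 and in 14.2% of all windows. These matches describe letters in these windows.

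Differences between ages were measured as log2 of (FPKM + 1) at the later age minus the same at the earlier age. Genes that reached 1 FPKM at any age were compared, and a difference of 1 or more in size, 2-fold on this scale, counts as a call of higher or lower. The added 1 understates the differences of low genes such as Prox1, Flt4 and Vegfc, so the plain FPKM ratio is given as well. Each age enters 2 of the 3 comparisons, so that an error in 1 value would appear in both.

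At P3 all 7 genes were below E18.5, and 3 of the 7 were called lower, Lyve1, Vegfa and Vegfb. Of all 14653 genes compared, 9.42% were called lower and 9.56% higher. The median difference of the 7 was -0.57, against 0.03 over all genes. Lyve1 had a difference of -1.93 (FPKM ratio 0.242), with 2.62% of the genes compared lying lower still. Vegfa differed by -1.504 (ratio 0.333) and Vegfb by -1.06 (ratio 0.456), which passed the threshold narrowly and is lost with a pseudocount of 5 (-0.84). Flt4 (-0.57), Prox1 (-0.45), Pdpn (-0.39) and Vegfc (-0.35) stayed under 2-fold. Prox1 nevertheless had an FPKM ratio of 0.478 and Flt4 one of 0.554.

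At 10 weeks all 7 genes were above P3, and 4 of the 7 were called higher, against 19.8% of 14655 genes called higher and 9.98% called lower. Lyve1 had a difference of 3.68, larger than in 98.3% of the genes compared, and an FPKM ratio of 14.2. Pdpn differed by 1.87 (ratio 4.12), Vegfb by 1.61 (ratio 3.26) and Vegfa by 1.56 (ratio 3.13). The remaining genes, Flt4 (0.75), Vegfc (0.74) and Prox1 (0.40), stayed under the threshold, with FPKM ratios of 2.14, 1.97 and 1.95. With a pseudocount of 0.1 Flt4 passed it (1.05). The median of the 7 was 1.56, against 0.14 over all genes.

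Adult and embryonic skin differed in Lyve1 and Pdpn. Both were called higher at 10 weeks than at E18.5, with differences of 1.75 and 1.48 and FPKM ratios of 3.44 and 3.03. Over all 14659 genes, 16.1% were called higher and 6.92% lower. The other 5 were under 2-fold in this comparison, at 0.55 for Vegfb, 0.39 for Vegfc, 0.18 for Flt4, 0.06 for Vegfa and -0.05 for Prox1. The sign is not stable for the smallest of these, since Vegfa was lower in the adult under all 3 other scalings and Flt4 under the upper quartile.

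**Figure D2:**
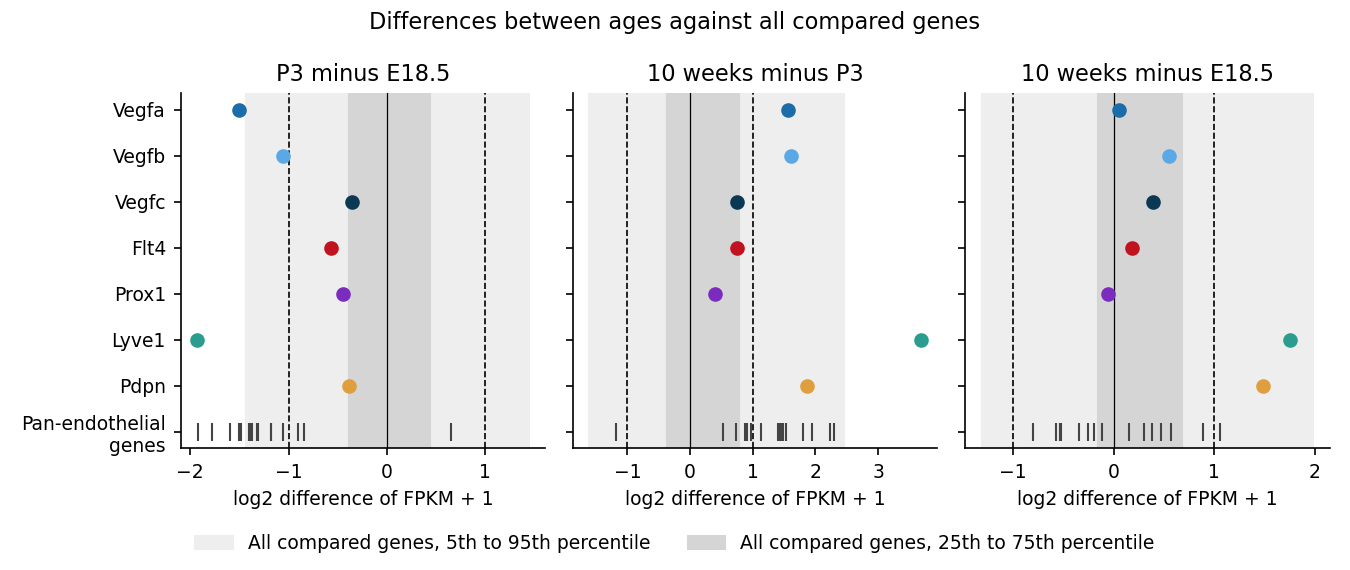
Log2 differences of FPKM + 1 between ages for the 7 genes (points) and for 16 pan-endothelial genes (ticks in the lowest row), over the range of all compared genes (grey bands) and the 2-fold threshold (dashed lines). Lyve1 lies outside the 5th to 95th percentile band at P3 against E18.5 (-1.93) and at 10 weeks against P3 (3.68). Vegfa lies just outside it at P3 against E18.5 (-1.504).

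Vessel genes as a whole followed the same course, so the 7 genes were also set against them. The 16 genes used, listed as pan-endothelial, do not separate blood from lymphatic vessels, and the part of either in their level was not tested. Of these 16, 13 were called lower and 0 higher at P3 than at E18.5, with a median difference of -1.34. With a pseudocount of 5 the count was 7 and the median -0.95. From P3 on, 10 were called higher and 1 lower at 10 weeks, with a median of 1.42, and 15 of the 16 were lowest at P3. Their summed level was 329 FPKM at E18.5, 125 FPKM at P3 and 327 FPKM at 10 weeks, and none was listed at 0. The adhesion molecule Pecam1 had 55.4, 17.7 and 48.3 FPKM at these ages. The 1 gene not lowest at P3 was the transcription factor Sox7, singled out after its values were seen, with 8.12, 13.3 and 5.31 FPKM.

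Per 100 FPKM of these summed vessel genes, which removes any scaling of the library, the low point at P3 was kept by Vegfa and Lyve1 only. Vegfa stood at 10.1, 8.82 and 10.5 at E18.5, P3 and 10 weeks, a nearly level course on this measure. Flt4 stood at 0.822, 1.20 and 0.980 and Prox1 at 0.321, 0.403 and 0.300, both highest at P3. Vegfc stood at 0.955, 1.80 and 1.36, also highest at P3. Vegfb was at 6.64, 7.96 and 9.91, each age above the one before it. Pdpn did the same with 2.39, 4.62 and 7.27. Lyve1 departed most, with 11.0, 6.99 and 38.0 at E18.5, P3 and 10 weeks, a ratio of 5.43 for 10 weeks over P3. These courses depend on the genes summed. Single vessel genes had 10 weeks over P3 FPKM ratios from 0.398 (Sox7) to 6.06 (Emcn). Flt4 (2.14), Vegfc (1.97) and Prox1 (1.95) rose less than Pecam1 (2.73) but more than Cdh5 (1.46). Against Cdh5 alone they would thus not be highest at P3.

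**Figure D3:**
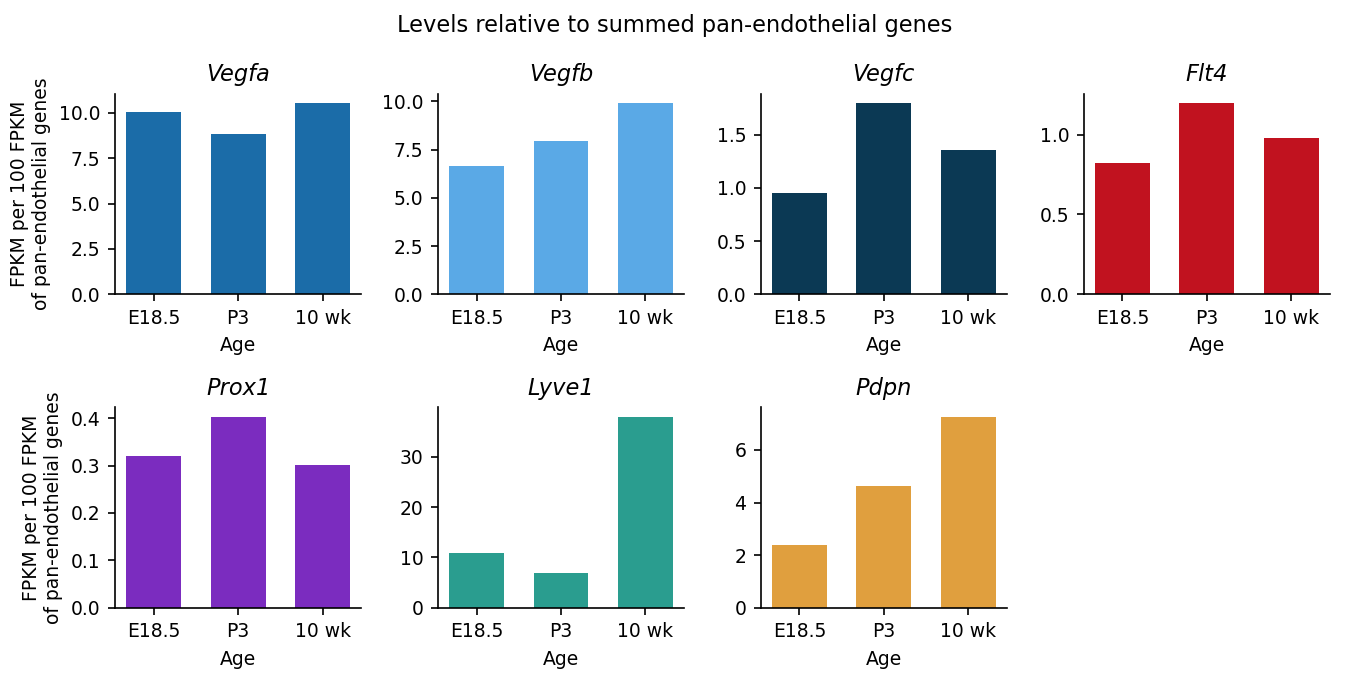
FPKM of each of the 7 genes per 100 FPKM of 16 summed pan-endothelial genes at E18.5, P3 and 10 weeks (bars from 0, own scale for each gene, 1 averaged value per bar). Prox1, Flt4 and Vegfc are highest at P3 on this measure, and Lyve1 is highest at 10 weeks, at 38.0.

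Macrophage genes moved with Lyve1. All 15 macrophage markers were matched, and none was listed at 0 at any age. At P3, 9 of 15 were called lower than at E18.5 (median -1.20), and at 10 weeks 15 of 15 were called higher than at P3 (median 3.34). Of the 15, 14 were lowest at P3, the other being Cbr2, with 27.4 FPKM at E18.5 and 34.1 FPKM at P3. Their summed level was 511 FPKM at E18.5, 183 FPKM at P3 and 2712 FPKM at 10 weeks. Per 100 FPKM of this sum, Lyve1 stood at 7.06, 4.77 and 4.58 at E18.5, P3 and 10 weeks. P3 and adult skin were thus close on this measure, with a 10 weeks over P3 ratio of 0.961. That closeness depends on the genes summed, since single markers had 10 weeks over P3 FPKM ratios from 3.23 (Maf) to 35.7 (C1qb). With C1qa at 29.3 and C1qc at 29.2, the 3 C1q genes weigh more in the adult sum than in that of P3. The part of macrophages in the Lyve1 level was not tested. By the mean over the 3 ages, which the adult carries, the most abundant markers of the list were the complement genes C1qa, with 39.4, 16.6 and 487 FPKM, C1qb, with 37.4, 10.8 and 387 FPKM, and C1qc, with 45.5, 13.2 and 384 FPKM. At E18.5 Pf4 (125 FPKM), F13a1 (83.2 FPKM) and Mrc1 (51.0 FPKM) stood above all 3 of these. At P3 Cbr2 (34.1 FPKM) and Pf4 (21.8 FPKM) did.

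Markers of other cells that express Pdpn or the ligands moved too. Of 9 dermal fibroblast markers, 7 were called lower at P3 than at E18.5 and 6 higher at 10 weeks than at P3, with summed levels of 3445, 1263 and 4386 FPKM at the 3 ages. Per 100 FPKM of them Pdpn stood at 0.228, 0.457 and 0.542, highest in the adult as for the vessel genes. That adult maximum depends on the genes summed. Single markers had 10 weeks over P3 FPKM ratios from 0.859 (Col1a1) to 10.8 (Dcn), against 4.12 for Pdpn. Basal keratinocyte markers were called higher at P3 than at E18.5 in 4 of 7 (Krt5, Krt14, Col17a1 and Itgb4) and lower in 0. At 10 weeks 2 of the 7, Krt5 and Krt14, were called lower than at P3, and these 2 carry most of the list's sum of 2610, 6036 and 2601 FPKM, while Col17a1 (-0.18) and Itgb4 (-0.09) stayed near their P3 level. Per 100 FPKM of this sum Vegfa stood at 1.27, 0.183 and 1.33 at E18.5, P3 and 10 weeks, a low point deeper than on its own FPKM. Suprabasal and cornified markers were called higher at P3 than at E18.5 in 6 of 7 and lower at 10 weeks than at P3 in 6 of 7, with a sum of 4405, 14069 and 4349 FPKM. Skeletal muscle markers were called lower at P3 in 12 of 13 and higher at 10 weeks than at P3 in 10 of 13, with a sum of 4569, 386 and 21269 FPKM. Adipocyte markers were called lower at P3 in 7 of 8, the other being Lep, and higher at 10 weeks than at P3 in 7 of 8, the other being Ucp1, with a sum of 4303, 1508 and 6038 FPKM. No marker of these 5 lists was listed at 0. A lowest sum at P3 was thus shared by the muscle, adipocyte, fibroblast, macrophage and pan-endothelial lists. Ucp1, the gene of the brown fat uncoupling protein, had 64.5, 2.54 and 0.0308 FPKM. FPKM values share a total, and the part of any of these cell types in the levels of the 7 genes was not tested.

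Other genes of the VEGF system mostly shared the low point at P3. Both further ligands did. Figf, the gene of VEGF-D, which also acts on Flt4, had 10.3 FPKM at E18.5, 4.68 FPKM at P3 and 15.0 FPKM at 10 weeks, above Vegfc at each age (Vegfc over Figf ratios of 0.305, 0.480 and 0.296). Pgf, placental growth factor, had 1.76, 0.638 and 3.14 FPKM. Both were called higher at 10 weeks than at P3 and neither was called at P3 against E18.5, where Figf missed the threshold closely (-0.99) and 1 of the 2 is called lower under any of the 3 other scalings.

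Among receptors, 3 of 4 besides Flt4 were called lower at P3 and then higher at 10 weeks (1 of 4 in each step with a pseudocount of 5). Kdr, the main signalling receptor for Vegfa, had 19.1 FPKM at E18.5, 5.58 FPKM at P3 and 15.2 FPKM at 10 weeks. Flt1, which binds Vegfa, Vegfb and Pgf, had 4.30, 1.48 and 6.77 FPKM, and the co-receptor Nrp1 20.03, 7.56 and 38.9 FPKM. The exception was Nrp2, the co-receptor for Vegfc, with 26.5, 26.4 and 18.5 FPKM, nearly level between E18.5 and P3 (-0.01). The Flt4 over Kdr ratio was 0.142, 0.268 and 0.210 at E18.5, P3 and 10 weeks.

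Genes that mature VEGF-C did not move together. Of 6 listed, 5 reached 1 FPKM, and Adamts3, the protease that cleaves VEGF-C, did not, with 0.163, 0.156 and 0.212 FPKM. Its helper Ccbe1 had 1.58 FPKM at E18.5, 0.659 FPKM at P3 and 1.25 FPKM at 10 weeks and stayed under 2-fold. Furin, a proprotein convertase, was called higher at P3 and lower at 10 weeks, with 18.8, 45.1 and 20.3 FPKM, the reverse of the 7 genes. Pcsk5, a related convertase, was called higher at 10 weeks than at P3, with 3.38, 1.91 and 5.42 FPKM. Adamts14 (6.55, 7.18 and 5.60 FPKM) and Pcsk7 (9.22, 10.1 and 11.8 FPKM) were not called.

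Of 18 other lymphatic endothelial genes, 17 were matched and 16 compared, with Stab2 under 1 FPKM at each age. At P3, 6 of 16 were called lower than at E18.5 and 0 higher (median -0.92), against 9.42% and 9.56% of all genes. The 6 were Sox18, Gata2, Angpt2, Tek, Tie1 and Gja4. Under each of the 3 other scalings 9 were called lower, with medians of -1.02, -1.09 and -1.04. The count was 10 with a pseudocount of 0.1 and 2 with a pseudocount of 5. Over all genes the number called lower moved too, from 1380 to 1626, 1840 and 1689 under these scalings. It was 2155 and 626 with these pseudocounts. At 10 weeks, 7 were called higher than at P3 and 0 lower (median 0.94), against 19.8% and 9.98% of all genes. With a pseudocount of 0.1 the number called higher was 11, and with one of 5 it was 2. Of the 16, 12 were lowest at P3. Mmrn1, Reln, Itga9 and Foxc2 stayed under the threshold at P3, as Flt4 and Prox1 did, although the plain FPKM ratio of P3 over E18.5 was 0.502 for Mmrn1, 0.409 for Reln and 0.447 for Itga9. Mmrn1, a secreted multimerin, had 4.71, 2.36 and 7.69 FPKM, and Reln, made by collecting lymphatic vessels, 1.46, 0.598 and 2.63 FPKM. Both were called higher at 10 weeks than at P3. Itga9, an integrin subunit of lymphatic valves, had 5.50, 2.46 and 5.04 FPKM and was not called. Foxc2, a transcription factor of valves, had 0.323, 0.186 and 1.14 FPKM and was also not called. Its plain FPKM ratio of 10 weeks over P3 was nevertheless 6.10, from a P3 value that bore a low-data mark.

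The list also holds factors known to act upstream of Prox1. Sox18, which switches on Prox1 in the embryo, was called lower at P3 than at E18.5 and remained lower at 10 weeks, with 45.7, 12.2 and 15.4 FPKM. Nr2f2, its partner in venous cells, had 4.27, 1.77 and 5.54 FPKM and was called higher at 10 weeks than at P3. Gata2, which acts in valve formation and is also a mast cell factor, had 5.65, 0.901 and 6.004 FPKM and passed the threshold in both steps. Of the angiopoietin system, the receptor Tek had 10.6, 2.89 and 19.7 FPKM, its relative Tie1, which also belongs to the pan-endothelial list, 17.1, 5.38 and 11.5 FPKM, and the ligand Angpt2 8.64, 2.54 and 5.65 FPKM, all called lower at P3. Gja4, a connexin of valves and arteries, had 9.17, 2.85 and 10.4 FPKM and was called in both steps. In the adult Ccbp2, a chemokine-scavenging receptor, stood out with 0.785, 0.879 and 8.64 FPKM. Efnb2 (17.9, 31.0 and 25.8 FPKM) and Piezo1, listed as Fam38a (12.5, 17.2 and 17.4 FPKM), were lowest at E18.5 and not called in any comparison. Fat4, an atypical cadherin of lymphatic valves, had 3.92, 1.53 and 2.06 FPKM and was not called. At P3 against E18.5 Fat4 (-0.96, FPKM ratio 0.390) and Nr2f2 (-0.93, ratio 0.415) missed the threshold closely.

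**Figure D4:**
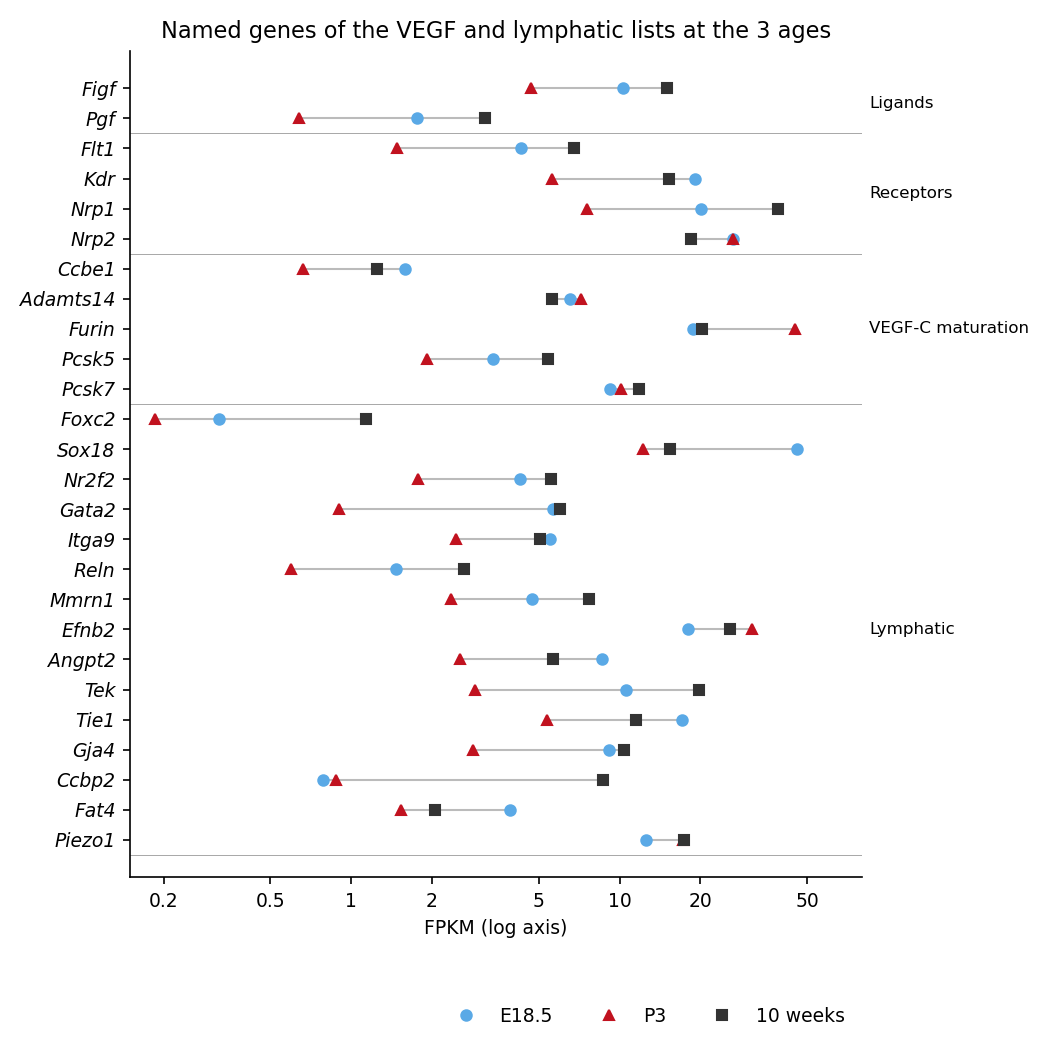
FPKM (log axis) at E18.5 (circles), P3 (triangles) and 10 weeks (squares) for the other VEGF ligands, receptors, VEGF-C maturation genes and lymphatic genes that reached 1 FPKM and are named in the text. The P3 triangle is the leftmost point for most genes, and Furin (45.1 FPKM at P3) and Efnb2 (31.0 FPKM at P3) are among those with it at the right.

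Hypoxia induces Vegfa through Hif1a, and genes of that response were examined beside it. Of 8 hypoxia regulators, 1 was called higher at P3 and 0 lower (median -0.10). Hif1a itself, 1 of the regulators, had 26.3 FPKM at E18.5, 27.9 FPKM at P3 and 27.5 FPKM at 10 weeks. HIF-1 alpha is controlled largely through the stability of the protein, which these data do not measure, and the part of hypoxia in the Vegfa level was not tested. The called gene was Epas1, the gene of HIF-2 alpha, with 10.6, 23.0 and 21.6 FPKM. Under the median of ratios, the upper quartile or a pseudocount of 5 the number called higher was 0. Egln3, a hydroxylase of the HIF proteins, had 35.6, 56.1 and 17.0 FPKM and was called lower at 10 weeks. Of 12 hypoxia target genes compared, 3 were called lower at P3 (Bnip3, Ankrd37 and P4ha1) and 1 higher (Adm), with a median of -0.58. At 10 weeks 5 were called higher than at P3 and 1 lower (median 0.71). The glycolytic Aldoa, which is also a muscle gene, had 737, 400 and 2646 FPKM. The names of single called genes in this paragraph were chosen after their values were seen.

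Of 9 further vessel ligands, 4 were called lower at P3 than at E18.5 (Angpt1, Angpt2, Dll4 and Apln) and 1 higher (Hgf), and 1 was called higher at 10 weeks than at P3 (Angpt1). Angpt2 is also among the lymphatic genes above. With a pseudocount of 5 each of these 3 counts was 0. With one of 0.1, 3 were called higher at 10 weeks than at P3. The list's median was -0.51 at P3 against E18.5 and -0.14 at 10 weeks against P3. Of 6 smooth muscle and pericyte markers, 1 was called lower at P3 (Des) and 5 higher at 10 weeks than at P3. Their sum was 227, 145 and 769 FPKM in order of age, also lowest at P3. That low point rests on Des, with 95.8, 10.8 and 450 FPKM. Proliferation markers were called lower at 10 weeks in 6 of 6 and in 0 of 6 at P3, so the low point of the 7 genes at P3 did not go with a low point of these. These names too were taken after the values were seen.

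Genes with the most similar course were searched by the distance between 3 centred values of log2(FPKM + 1), over 3 ages, among protein-coding genes that reached 5 FPKM at any age. Nearest to Vegfa were Fkbp7 (distance 0.0081; 36.0, 12.1 and 37.6 FPKM), Tbkbp1 and Gulp1. Nearest to Vegfb were St6galnac4, Zfp467 and Rhoj. Among the 3 nearest to Lyve1 were Hspb7 (distance 0.026; 8.11, 1.36 and 29.0 FPKM) and Gfpt2, and among the 3 nearest to Pdpn were Fndc1 and Pla2r1. A distance of 0.25 or less was reached by 19 genes for Lyve1, 74 for Vegfa, 148 for Vegfb and 159 for Pdpn, among 10572 searched. For Flt4 it was reached by 571, for Prox1 by 778 and for Vegfc by 798 of 10573, since the added 1 flattens the course of these low genes. Genes near them on this scale need not share the size of their FPKM changes, as Fars2, nearest to Prox1, shows with 11.4, 8.11 and 11.0 FPKM. The nearest were Mrps21, Zfp958 and Trp53i13 for Flt4, Fars2, Atp5l and Rap2a for Prox1, and Uckl1, Prkag2 and Prune for Vegfc.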

How the data were processed

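Gene expression in whole skin of FVB mice was measured by RNA sequencing at 3 ages. Trizol RNA was made into Illumina TruSeq libraries, per the labels' protocols. The deposited values are FPKM, averaged by the authors over replicates per the file headers. The build was mm9 and the tools included Cufflinks 2.1.1 and TopHat2 2.0.7, per the submitters' processing notes. Annotation, strand setting, the sharing of multi-mapping reads and read numbers are not stated here, so depth and the precision of low values are unknown. Gene spans were copied from the tables (mm9) with 1 added to each start. Of 535 microRNA genes, 228 had a RefSeq length equal to end minus start as deposited, and 4 equal to that plus 1.

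A value of 0 marked as failed or too deep was treated as missing (3 values at E18.5, 7 at P3). Differences used a pseudocount of 1 and a minimum of 1 FPKM at any age. With 1 value per age no test was run. The members and lists were chosen with earlier results of these data known. The 16 lists and the members hold 155 entries, of which 152 matched by symbol, 1 by an older symbol and 2, both Ccl21a, did not. The 7 genes and all genes of the 4 VEGF and lymphatic lists could be named, plus the 3 genes of highest mean FPKM of other lists and the 3 most alike per member; other names were taken after values were seen. Some of these genes are not reported here. Calculations were tested on simulated data and used Python 3.11.15, pandas 2.3.3 and numpy 2.4.6.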

Additional observations from a re-analysis of the deposited data

How the results depend on the processing

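Of 21 differences of the 7 genes (7 genes, 3 comparisons), all kept their side of the 2-fold threshold under scaling on the median of ratios, the upper quartile or the summed FPKM. With a pseudocount of 5 the difference of Vegfb at P3 against E18.5 fell under it (-0.84), and with 0.1 that of Flt4 at 10 weeks against P3 passed it (1.05). Leaving out the filter could not change these differences, since all 7 genes reached 1 FPKM. With a minimum of 5 FPKM 12 differences remained, their values unchanged by construction. Vegfc, Flt4 and Prox1 were left out by that minimum. No call of a member reversed. Of 408 alternative values of 51 list medians, 390 kept their side of the threshold, 13 passed it and 5 fell under it. A change of sign with both values under 1 in size counted as kept, and such changes occurred. The VEGF-C maturation median at P3 against E18.5 was 0.12 as deposited and -0.08 under the upper quartile. With a value of 1 or more in size, 0 changed sign. The 3 other scalings shift log2 ratios of FPKM by -0.12, -0.22 and -0.02 at P3 against E18.5, by -0.10, -0.08 and -0.12 at 10 weeks against P3, and by -0.22, -0.30 and -0.14 at 10 weeks against E18.5 (median of ratios, upper quartile and summed FPKM in this order). Counts over all genes moved more. With a pseudocount of 5 they were 842 higher and 626 lower at P3 against E18.5 (1401 and 1380 with a pseudocount of 1), 1596 higher and 898 lower at 10 weeks against P3 (2909 and 1462), and 1274 higher and 561 lower at 10 weeks against E18.5 (2358 and 1014). With a pseudocount of 0.1, 2155 were lower at P3 against E18.5. The upper quartile moved the share of higher calls at P3 against E18.5 to 37.4%, against 50.4% as deposited, and at 10 weeks against E18.5 to 57.0%, against 69.9%. Without chromosomes X and Y, 1375 were higher and 1296 lower at P3 against E18.5. No paired analysis was possible because each age has 1 averaged value, and for the same reason no replicate could be left out. Depth is unknown, so what it limits at the level of Prox1 cannot be stated.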
